A study of Mus musculus with 6 samples.

Results

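The 10 genes described here are the core of the NRF2 antioxidant pathway: the transcription factor gene Nfe2l2 and its inhibitor Keap1, the glutathione genes Gclc, Gclm and Slc7a11, the thioredoxin genes Txnrd1, Srxn1 and Prdx1, and the detoxification genes Nqo1 and Hmox1. They were taken by gene symbol from the probe sets that the array's annotation pairs with exactly 1 gene, using the probe set with the highest mean over all arrays where a gene had several. All 10 were found, among 19937 genes measured this way. RNA of 6 cultures of adult neural stem and progenitor cells, kept dividing, was hybridised to 1 Affymetrix whole-transcript array per culture. The 3 control cultures were from Sirt1lox/lox mice and the 3 Sirt1 inactive cultures from NestinCre;Sirt1lox/lox mice, so both groups carried floxed Sirt1 alleles and the controls carried no Cre. All mice were 8 weeks old and of the 129SV strain, and their cells were grown in EGF and bFGF, first as neurospheres and then attached, to passage 2. Nestin-Cre acts in neural stem and progenitor cells, so a cell of another kind in the cultures can keep SIRT1. How many mice gave each culture is not stated in the sources used here, so the p-values measure the spread between these cultures.

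NRF2, the protein of Nfe2l2, is held in the cytoplasm and marked for degradation by KEAP1, which binds a CUL3 ubiquitin ligase. Oxidants and electrophiles modify cysteines of KEAP1, NRF2 then accumulates, enters the nucleus with a small MAF partner and binds antioxidant response elements near its target genes. Much of this control acts on the protein, so transcript levels of Nfe2l2 and Keap1 do not report NRF2 activity by themselves, while those of the target genes are its usual readout. SIRT1 is an NAD-dependent deacetylase of histones and transcription factors. Setting the genotypes side by side shows which NRF2 pathway transcripts differ where Sirt1 is inactivated.

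The core of an antioxidant response element, TGACNNNGC, was looked for on both strands of the RefSeq promoters (GRCm38.p6), each running from 250 bases before to 50 bases after a transcription start. Promoters were listed for 8 of the 10 genes, and 5 of these genes held the core, against 14.0% of all 27025 genes with a listed promoter (12.4% of 32851 promoters). The sites are shown because NRF2 is known to act through elements with this core, and whether each match is such an element was not tested. They are printed in the direction of the gene with the core in capitals and 10 bases on either side.
Nfe2l2: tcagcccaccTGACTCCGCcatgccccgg
Gclm: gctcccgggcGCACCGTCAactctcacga
Txnrd1: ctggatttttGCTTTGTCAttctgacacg
Srxn1: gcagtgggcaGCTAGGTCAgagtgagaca
Prdx1: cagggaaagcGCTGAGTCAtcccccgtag
The core lay on the strand of the gene in Nfe2l2 and on the opposite strand in the other 4 genes. The Nfe2l2 window is chr2:75704885-75704913 on the minus strand, with the core beginning at position -240 from the start and outside the gene. The Gclm window is chr3:122245413-122245441 on the plus strand, with the core at -134 and outside the gene. The Txnrd1 window is chr10:82859104-82859132 on the plus strand, with the core at -92 from the second of 3 listed starts, and lies inside the span of the gene. The Srxn1 window is chr2:152105542-152105570 on the plus strand, with the core at base 29 of the transcribed sequence. The promoters of Keap1, Nqo1 and Slc7a11 did not hold these letters in this window.

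The Prdx1 site is also shown in its context, because Prdx1 was the gene whose groups of arrays did not overlap. The 250 bases before its start, chr4:116685349-116685598 on the plus strand and outside the gene, hold the core at -133.
Prdx1 upstream: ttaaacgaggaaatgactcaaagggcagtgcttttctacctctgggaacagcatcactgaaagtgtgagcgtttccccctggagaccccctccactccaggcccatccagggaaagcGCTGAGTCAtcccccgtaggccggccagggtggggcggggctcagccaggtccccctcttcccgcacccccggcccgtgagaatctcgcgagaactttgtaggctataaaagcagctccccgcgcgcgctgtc
These matches describe the sequence. No binding was measured in these cultures.

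The arrays had medians of 7.36 to 7.39 on the log2 RMA scale, on which all levels below are given. Sirt1 itself, the check of the labels, was 8.28 ± 0.041 in Sirt1 inactive against 8.68 ± 0.12 in control (SD, n = 3), lower in 3 of 3 same-numbered pairs, with groups that did not overlap. Its difference of -0.41 (0.755 times control) did not pass over all probe sets (limma, adjusted p = 0.959). Which part of Sirt1 is floxed is not stated in the labels, so how many of its probes lie outside the deleted part is unknown. The 11 stem and progenitor markers measured had mean levels of 10.49 to 10.54 in control and 10.49 to 10.57 in Sirt1 inactive. They ranged from Prom1, at 7.08 to 7.64 and so near the median of the arrays, and Hopx, at 8.31 to 8.65, to Sox2 at 11.60 to 11.78, Nes at 11.55 to 11.70 and Vim at 13.21 to 13.45. Control replicate 3 lay farthest from the other arrays, at a median absolute distance of 0.125 against 0.070 to 0.0996 for the other 5. It was the lowest of the 6 arrays for 9 of the 13 astrocyte markers. In that culture the 13 astrocyte markers had a mean level of 9.88, against 10.44 to 10.53 in the Sirt1 inactive cultures and up to 10.50 in the other controls, and Gfap, the astrocyte filament gene, read 7.41 against 9.55 to 10.25 elsewhere. The markers of mural cells and fibroblasts lay 0.54 below their mean over the arrays there, and the 12 neuroblast and neuron markers 0.29 above it. Some marker lists also leaned in 1 direction between the genotypes, where 39.9% of all probe sets were above 0 (46.3% without control replicate 3). Of the 12 neuroblast and neuron markers 2 were above 0 and 10 below (median -0.28), and 2 of 12 were above 0 without control replicate 3 as well (median -0.097). Above 0 were 0 of 9 markers of myelinating oligodendrocytes, 1 of 8 of ependyma, 2 of 12 of microglia and macrophages and 3 of 8 of endothelium. So were 6 of 11 of stem cells and progenitors, 7 of 10 of mural cells and fibroblasts and 10 of 13 of astrocytes. Without control replicate 3 these counts were 1, 0, 4, 3, 6, 3 and 7. Of the 10 markers of oligodendrocyte progenitors 5 were above 0 and 5 below (median -0.016), or 7 above 0 without control replicate 3 (median 0.12). With groups that did not overlap, 4 were higher and 1 lower, beside 2.62% and 6.71% of all probe sets. These 5 were Pdgfra (0.79, or 0.42 without control replicate 3), Gpr17 (0.75 and 0.67), C1ql1 (0.44 and 0.39), Sox10 (0.28 and 0.20) and Vcan (-0.26 and -0.35), named after their values were seen. None of these markers passed the test (limma, adjusted p = 0.959 for each of the 5). In bulk RNA fewer cells of a type and less RNA per cell cannot be told apart. Differences of the pathway genes without this array are given below where they turn direction or move by over 1.5 times.

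None of the 10 genes passed the test, and the differences were small. By limma, 0 of 10 had an adjusted p under 0.05, where 0 of 22961 tested probe sets did (0%). At an unadjusted p under 0.05 there were also 0 of 10, against 830 probe sets (3.61%, of which 0.984% higher and 2.63% lower among all tested), or 1741 in a paired fit with the replicate number as a block, and 2 of the 10 then did. Of the 10 genes 8 had a higher mean in the Sirt1 inactive cultures and 2 a lower one, while 39.9% of all probe sets were above 0 and 60.1% below. The part of the marker differences between the genotypes in these counts was not tested. The median difference of the 10 was 0.061, beside -0.022 for all probe sets. All 10 genes were among the 13502 brighter probe sets, of which 46.4% were above 0, with a median of -0.0080. Without control replicate 3 the count stayed at 8 of 10, with a median of 0.065, while 46.3% of all probe sets were then above 0, with a median of -0.0071. Control replicate 3 was the lowest array for 5 of the 10 genes and the highest for 2, beside 17.7% and 37.2% of all probe sets. Sirt1 inactive replicates 1, 2 and 3 were the highest array for 2, 4 and 1 of the 10, beside 10.4%, 17.7% and 9.17% of all probe sets. The 95% intervals of the 10 genes ran from a level of 0.733 times control at the lowest to 1.60 times at the highest. An exact permutation test of 3 against 3 arrays cannot go below p = 0.1.

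**Figure D1:**
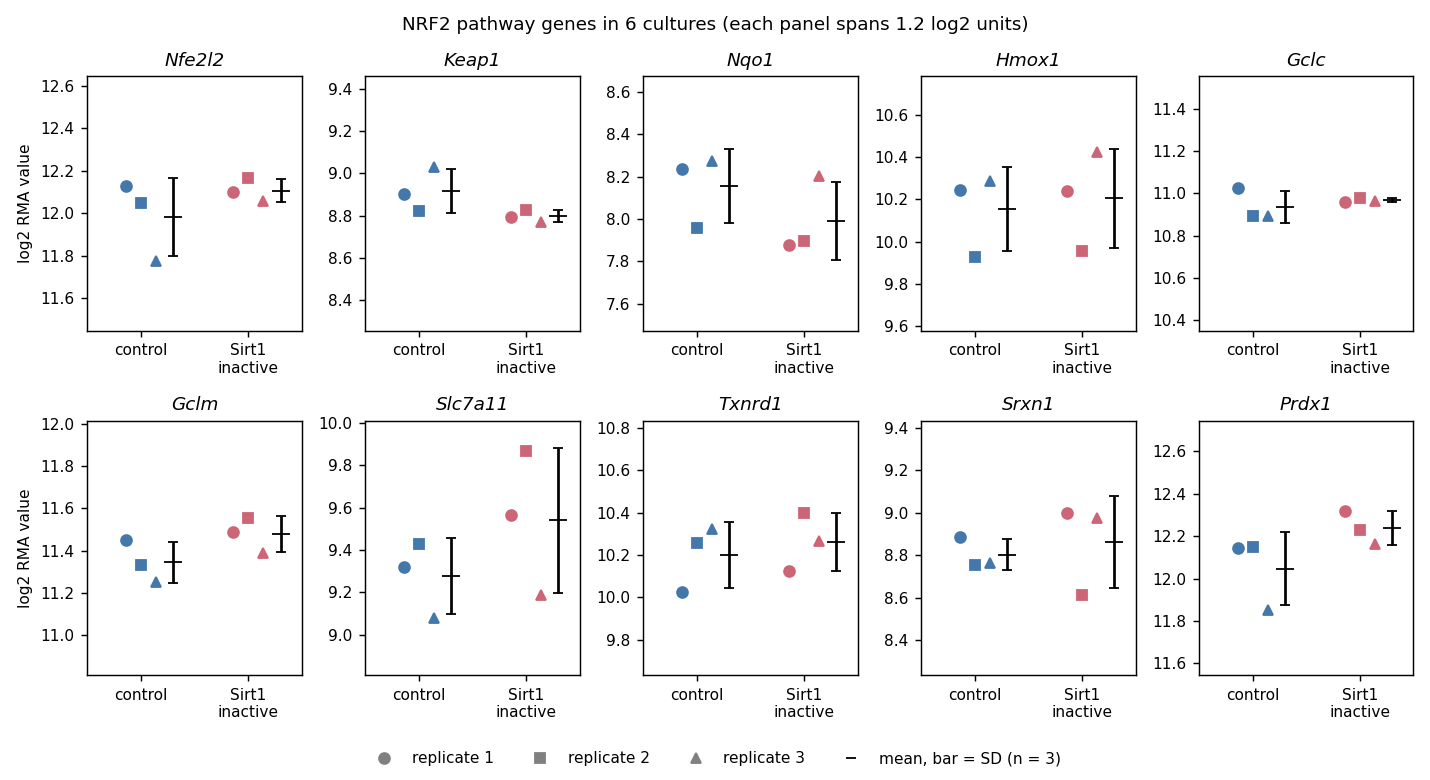
Log2 RMA values of the 10 NRF2 pathway genes (vertical axis, 1 panel per gene, each spanning the same log2 range) in the control and Sirt1 inactive cultures (horizontal axis). Each point is 1 array, its shape gives the replicate number, and the black bar is the mean with SD (n = 3). The groups overlap in 9 panels and stand apart only for Prdx1, whose second probe set, not drawn, has groups that overlap. Control replicate 3 (blue triangle) is the lowest of the 6 arrays for Nfe2l2, Gclc, Gclm, Slc7a11 and Prdx1.

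Nfe2l2, which encodes NRF2, read 12.13, 12.05 and 11.78 in control replicates 1, 2 and 3 and 12.10, 12.17 and 12.06 in Sirt1 inactive replicates 1, 2 and 3. Control replicate 3 was low, and the other 5 arrays lay between 12.05 and 12.17, so the groups overlapped. The difference was 0.12 (SE 0.098, 95% interval -0.11 to 0.35; limma, adjusted p = 0.959), and without control replicate 3 it was 0.019. Keap1, the repressor, read 8.90, 8.82 and 9.03 in control and 8.80, 8.83 and 8.77 in Sirt1 inactive. Here control replicate 3 was the highest array, and the Sirt1 inactive arrays lay within 0.056 of each other. The difference of Keap1 was -0.12 (SE 0.071, 95% interval -0.28 to 0.048; limma, adjusted p = 0.959), and -0.062 without control replicate 3.

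Among the 15 listed regulators and partners of NRF2, 0 passed the test, 7 were above 0 and 8 below, with a median difference of -0.00064. Bach2 and Bach1, transcription repressors that compete for the same elements, had the smallest unadjusted p, at differences of -0.16 and -0.15 (limma, adjusted p = 0.959 for each), or -0.061 and -0.072 without control replicate 3. Bach1 read 9.03, 9.25 and 9.37 in control and 9.08, 9.00 and 9.11 in Sirt1 inactive, so control replicate 3 was the highest and the groups overlapped. Cul3, the ligase scaffold that KEAP1 binds, differed by 0.087. The small MAF genes, named here for their role as DNA-binding partners of NRF2, differed by -0.089 for Mafg, -0.12 for Maff and 0.046 for Mafk, and none passed. These were 0.0015, -0.19 and 0.058 without control replicate 3.

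Glutamate-cysteine ligase, the first and limiting enzyme of glutathione synthesis, has a catalytic subunit from Gclc and a modifier subunit from Gclm. Gclc read 11.02, 10.89 and 10.89 in control and 10.96, 10.98 and 10.96 in Sirt1 inactive. It varied least of the 10 genes, over 0.13 in all 6 arrays, a range smaller than that of all but 9.71% of tested probe sets. Its difference was 0.031 (SE 0.062, 95% interval -0.11 to 0.18), an interval from 0.923 to 1.13 times control. It was 0.0091 without control replicate 3, 0.0097 without control replicate 2 and 0.076 without control replicate 1. Gclm read 11.45, 11.33 and 11.25 in control and 11.49, 11.56 and 11.39 in Sirt1 inactive. Each Sirt1 inactive array lay above the control of the same number, but the lowest, replicate 3, lay below control replicate 1. The difference of Gclm was 0.13 (SE 0.077, 95% interval -0.048 to 0.31; limma, adjusted p = 0.959), and 0.088 without control replicate 3.

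Slc7a11 encodes xCT, the cystine importer that supplies the cysteine for glutathione, and had the largest difference of the 10 genes. It read 9.32, 9.43 and 9.08 in control and 9.57, 9.87 and 9.19 in Sirt1 inactive. Each of the Sirt1 inactive arrays was above its same-numbered control, by 0.25, 0.44 and 0.11, yet replicate 3 was low in both groups, so the groups overlapped. The mean was 9.54 ± 0.34 against 9.27 ± 0.18 (SD, n = 3), which is 0.27 higher (SE 0.17, 95% interval -0.15 to 0.68), or 1.20 times control (0.904 to 1.60). It did not pass (limma, adjusted p = 0.959; unadjusted p = 0.172), nor did it in the paired fit by replicate number, with an SE of 0.079 (adjusted p = 0.656; unadjusted p = 0.0177). The value rested on single arrays: it was 0.17 without control replicate 3, 0.10 without Sirt1 inactive replicate 2 and 0.44 without Sirt1 inactive replicate 3. Its range over the 6 arrays, 0.79, was larger than that of 95.1% of tested probe sets.

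**Figure D2:**
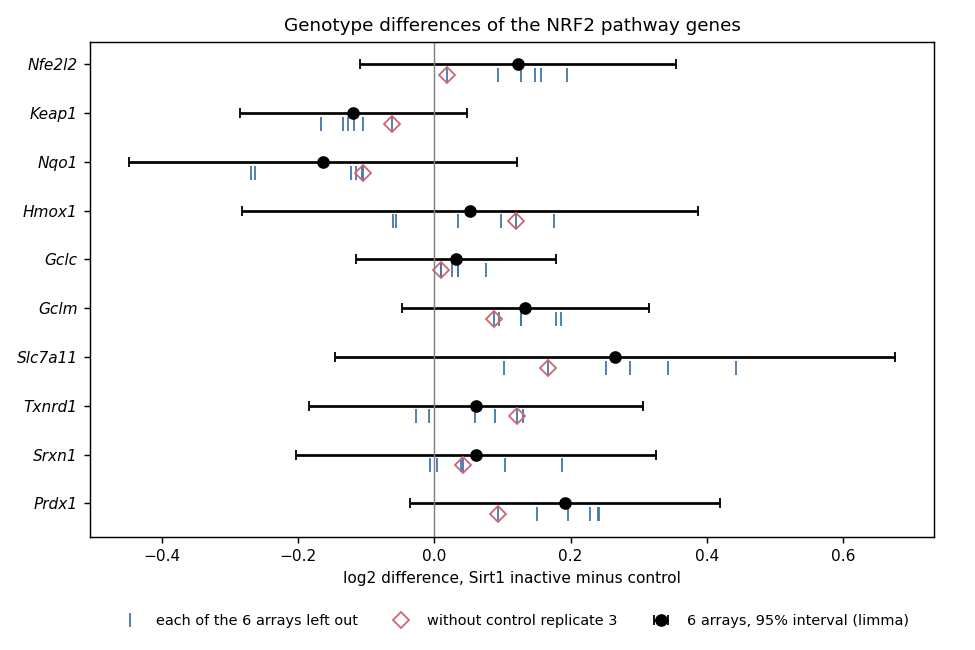
Log2 difference, Sirt1 inactive minus control (horizontal axis), of the 10 NRF2 pathway genes (vertical axis). Black points with bars are limma's differences over 6 arrays with 95% intervals, blue ticks the differences with each array left out in turn, and red diamonds those without control replicate 3. Every interval includes 0, Slc7a11 has the largest difference (0.27), and Nqo1 (-0.16) and Keap1 (-0.12) are below 0.

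Of the 30 other glutathione genes measured, 15 were above 0 and 15 below, 0 passed the test, and the median difference was 0.0028. Without control replicate 3 only 7 of 30 were above 0, with a median of -0.046. Ggt7, of the gamma-glutamyltransferase family, had the smallest unadjusted p, at -0.25, followed by the microsomal transferase gene Mgst2 at -0.15 and the mitochondrial glutaredoxin gene Glrx2 at 0.20 (limma, adjusted p = 0.959 for each). Glrx2 read 10.93, 11.13 and 10.99 in control and 11.18, 11.29 and 11.17 in Sirt1 inactive. The groups of these 3 genes, picked by smallest p, did not overlap, and no other gene of the list had such groups. So 1 of the 30 was higher (Glrx2) and 2 were lower (Ggt7 and Mgst2). That is near the share of all probe sets, 9.33%, with 2.62% higher and 6.71% lower. Control replicate 3 was the lowest of the 6 arrays for 13 of these 30 genes, where it was the lowest for 17.7% of all probe sets. Among these genes, Gsta4 read 9.22 there and 10.05 to 10.69 elsewhere, Gstm4 read 7.83 there and 8.62 to 9.20 elsewhere, and the peroxidase gene Gpx8 read 10.85 there and 11.55 to 11.83 elsewhere, examples chosen after their values were seen. Astrocyte markers were low in the same culture, and their part in these values was not tested.

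In the thioredoxin system, Txnrd1 encodes the cytosolic selenoprotein that reduces thioredoxin with NADPH. It read 10.02, 10.26 and 10.32 in control and 10.12, 10.40 and 10.26 in Sirt1 inactive. Replicate 1 was the lowest in both groups, and the groups overlapped over most of their range. The difference was 0.061 (SE 0.10, 95% interval -0.18 to 0.31; limma, adjusted p = 0.965). Single arrays turned it: it was 0.12 without control replicate 3, -0.027 without control replicate 1 and -0.0075 with Sirt1 inactive replicate 2 left out. Srxn1 encodes sulfiredoxin, which repairs overoxidised peroxiredoxins, and read 8.89, 8.76 and 8.76 in control and 9.00, 8.61 and 8.98 in Sirt1 inactive. Sirt1 inactive replicate 2 was the lowest of all 6 arrays although the other 2 of its group were the highest. The difference of Srxn1 was 0.061 (SE 0.11, 95% interval -0.20 to 0.33; limma, adjusted p = 0.965), and 0.19 without Sirt1 inactive replicate 2 (adjusted p = 1.00). It turned to -0.0067 when Sirt1 inactive replicate 1 was left out.

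Prdx1, an abundant cytosolic peroxiredoxin that removes hydrogen peroxide, had the smallest unadjusted p of the 10 genes. It read 12.14, 12.15 and 11.85 in control and 12.32, 12.23 and 12.16 in Sirt1 inactive, so all Sirt1 inactive arrays lay above all controls, though replicate 3 exceeded control replicate 2 by little. Groups that did not overlap in this direction were seen for 2.62% of all probe sets. The mean was 12.24 ± 0.079 against 12.05 ± 0.17 (SD, n = 3), which is 0.19 higher (SE 0.097, 95% interval -0.036 to 0.42), or 1.14 times control. It did not pass (limma, adjusted p = 0.959; unadjusted p = 0.0873), and in the paired fit the unadjusted p was 0.0328 (adjusted p = 0.656). Without control replicate 3 the difference was 0.093. A second probe set annotated with the same Prdx1 accessions read 11.60, 11.63 and 11.27 in control and 11.70, 11.69 and 11.62 in Sirt1 inactive. It differed by 0.17 and its groups overlapped. Control replicate 3, at 11.27, was its lowest array and the other arrays lay between 11.60 and 11.70, so this difference rested largely on that array. RefSeq lists a Prdx1 pseudogene, Prdx1-ps, and whether the probes also read such copies cannot be told from these values.

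Of the 14 other thioredoxin and peroxiredoxin genes measured, 11 were above 0 and 3 below, 0 passed, and the median difference was 0.039. Without control replicate 3, 8 were above 0 and the median was 0.012. Of all probe sets 39.9% were above 0, or 46.3% without that array. The genes with the smallest unadjusted p were the sestrins Sesn1 (-0.16) and Sesn2 (-0.22), stress-induced proteins of redox and nutrient control, and Msrb3 (0.15), a methionine sulfoxide reductase (limma, adjusted p = 0.959 for each). They differed by -0.20, -0.044 and 0.016 without control replicate 3. Sesn2 read 10.75 in control replicate 3 and 10.07 to 10.28 in the other 5 arrays. Named for their roles, Txn1, the cytosolic thioredoxin that Txnrd1 reduces, differed by 0.044 (0.021 without control replicate 3), and Prdx3, the mitochondrial peroxiredoxin, by 0.12 (0.063).

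The quinone and heme genes, Nqo1 and Hmox1, did not pass the test. Nqo1 encodes a quinone reductase that is among the most used reporters of NRF2 activity. It read 8.24, 7.95 and 8.27 in control and 7.88, 7.89 and 8.20 in Sirt1 inactive, and each Sirt1 inactive array was below the control of the same number, with differences of -0.36, -0.061 and -0.068. The mean was 7.99 ± 0.18 against 8.15 ± 0.17 (SD, n = 3), which gives -0.16 (SE 0.12, 95% interval -0.45 to 0.12; limma, adjusted p = 0.959). It was -0.10 without control replicate 3, and -0.26 and -0.27 without control replicate 2 or Sirt1 inactive replicate 3; arrays weighted by their spread gave 0.0012. The groups overlapped because Sirt1 inactive replicate 3 was higher than control replicate 2. Hmox1 encodes heme oxygenase 1, which breaks down heme and is also strongly expressed in macrophages. It read 10.25, 9.93 and 10.29 in control and 10.24, 9.96 and 10.42 in Sirt1 inactive. Replicate 2 was the lowest and replicate 3 the highest in both groups. Same-numbered cultures differed by -0.0068, 0.030 and 0.13, each less than the range over the 3 cultures of 1 genotype (0.36 in control and 0.46 in Sirt1 inactive). Control replicates 1 and 3, at 10.25 and 10.29, lay closer together than the 2 cultures of number 3. The difference of Hmox1 was 0.052 (SE 0.14, 95% interval -0.28 to 0.39; limma, adjusted p = 0.979). Single arrays turned it: it was 0.12 without control replicate 3, -0.061 without control replicate 2 and -0.056 with Sirt1 inactive replicate 3 left out. The 12 microglia and macrophage markers had mean levels of 6.86 to 6.93 in control and 6.81 to 6.83 in Sirt1 inactive, below the medians of the arrays. Of these 12, 2 were above 0 and 10 below (median -0.071), or 4 above 0 without control replicate 3. With groups that did not overlap, 5 were lower and 0 higher, beside 6.71% and 2.62% of all probe sets. None passed the test, and the part of these markers in the Hmox1 values was not tested.

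Counted by replicate number, Gclm, Slc7a11 and Prdx1 were higher in all 3 same-numbered pairs and Nqo1 was lower in all 3, while the other 6 genes were mixed. All probe sets together were higher in all 3 pairs in 10.9% and lower in all 3 in 20.7% of cases.

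Of the 25 other NRF2 targets measured, which serve NADPH supply, detoxification and heme and iron handling, 19 were above 0 and 6 below, 0 passed, and the median difference was 0.041. Without control replicate 3 the count was 13 of 25 and the median 0.016. Of all probe sets 39.9% were above 0, or 46.3% without that array. Me1, the cytosolic malic enzyme that makes NADPH, had the smallest unadjusted p, at 0.15, followed by Cbr1, a carbonyl reductase, at -0.14 and Akr1b10, an aldo-keto reductase, at 0.14 (limma, adjusted p = 0.959 for each). Without control replicate 3 these were 0.053, -0.10 and 0.073. Control replicate 3 was the lowest array for 11 of the 25. Pgd, of the pentose phosphate pathway, read 11.23, 11.24 and 11.24 in control and 11.25, 11.36 and 11.27 in Sirt1 inactive, and was chosen after its values were seen. Its groups did not overlap, with a difference of 0.057 (limma, unadjusted p = 0.357). The groups of Tkt did not overlap either, at 0.038 (limma, unadjusted p = 0.498). With such groups 2 of the 25 genes were higher and 0 lower, beside 2.62% and 6.71% of all probe sets. Over the 5 lists of other NRF2 pathway genes, 88 genes were measured, of which 53 were above 0, or 37 without control replicate 3. The share of all probe sets above 0 was 39.9%, or 46.3% without that array, so the 37 of 88 did not exceed it.

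Slc7a11 is also a target of ATF4, the transcription factor of the amino acid response, so genes of that response were read beside it. Of the 20 measured, 2 were above 0 and 18 below, 0 passed the test, and the median difference was -0.12. The count and the median rested on control replicate 3, without which 11 of 20 were above 0 and the median was 0.016. That array was the highest of the 6 for 17 of the 20 genes, where it was the highest for 37.2% of all probe sets, and the list lay 0.34 above its mean over the arrays there. Nupr1, a stress-induced chromatin protein, had the smallest unadjusted p, at -0.21, followed by Sesn2 at -0.22 and the serine synthesis gene Psph at -0.14 (limma, adjusted p = 0.959 for each). With control replicate 3 left out, the values were -0.059, -0.044 and -0.035. Chac1, whose enzyme degrades glutathione and which was named after its values were seen, read 10.44 in control replicate 3 and 8.79 to 9.39 in the other 5 arrays. Slc7a1, a cationic amino acid transporter also named after its values were seen, read 10.21 there and 9.32 to 9.60 elsewhere. Slc7a11 had its lowest value of all 6 arrays, 9.08, in control replicate 3. Slc3a2, named for its role because it encodes the heavy chain that pairs with xCT, read 12.67 there and 12.53 to 12.66 elsewhere.

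**Figure D3:**
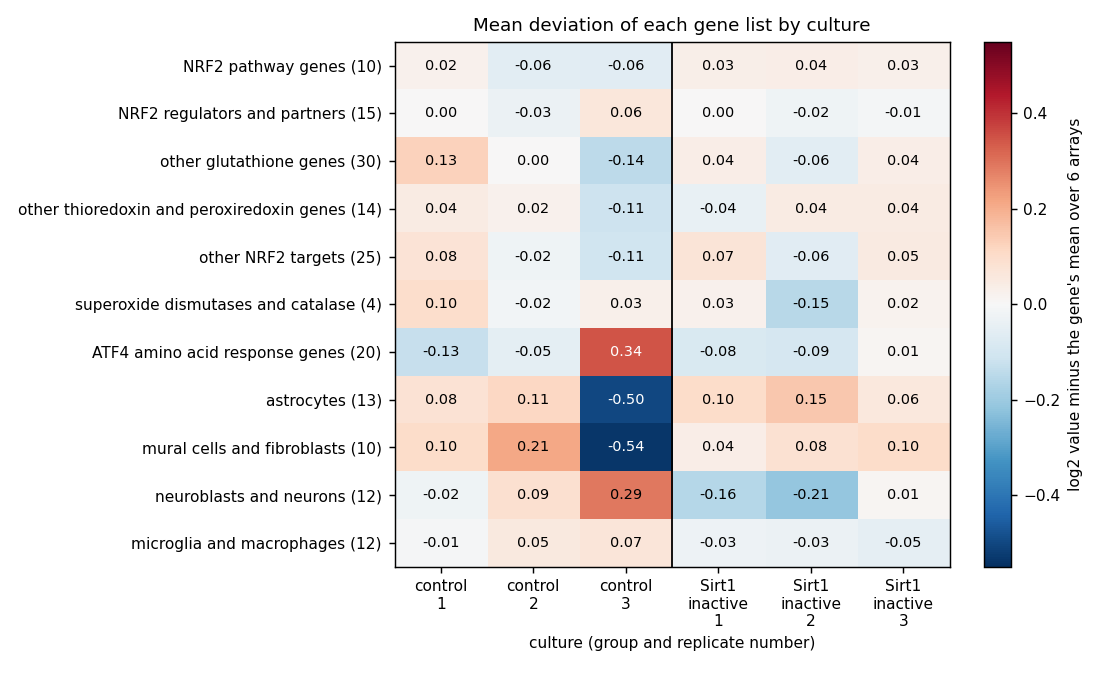
Mean deviation of each gene list (vertical axis, with the number of genes measured) in each culture (horizontal axis), as the log2 value minus the gene's mean over the 6 arrays, averaged over the list; red is above and blue below. The average of the 10 NRF2 pathway genes stays within 0.061 of 0 in every culture, while control replicate 3 is at 0.34 for the ATF4 list and at -0.50 for the astrocyte markers. Single genes of the 10 deviate in both directions in control replicate 3, from -0.33 for Slc7a11 to 0.20 for Nqo1, and partly cancel in the average.

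The genes with the profile most like that of Slc7a11, the gene with the widest range, were found by the root mean square difference of centred log2 values over the 6 arrays. They were Zfp385a, a zinc finger gene (0.078), Maoa, the monoamine oxidase A gene (0.093), Polr3g, of RNA polymerase III (0.094), Eva1c (0.095) and Mtr, the methionine synthase gene (0.097). Zfp385a read 10.27, 10.39 and 10.04 in control and 10.55, 10.66 and 10.23 in Sirt1 inactive. In all 5 of these genes the highest array was Sirt1 inactive replicate 2 and the lowest control replicate 3, as in Slc7a11. This likeness follows largely from their choice by nearness over the same 6 arrays. Of the NRF2 pathway genes, Gclm, Prdx1 and Nfe2l2 ranked 517, 584 and 638 of 19936 genes in nearness to Slc7a11, at 0.18, 0.19 and 0.19. Gclc ranked 4113 (0.25), Txnrd1 5950 (0.26), Keap1 13731 (0.31) and Srxn1 16795 (0.34). The distance is not scaled to each gene's spread, so a gene that varied little, such as Gclc, can rank near without a like profile. Nqo1 ranked 19088 and Hmox1 19006, at 0.41 and 0.40, so these targets had profiles over the cultures that lay far from that of Slc7a11. These distances describe 6 arrays and are not a test.

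**Figure D4:**
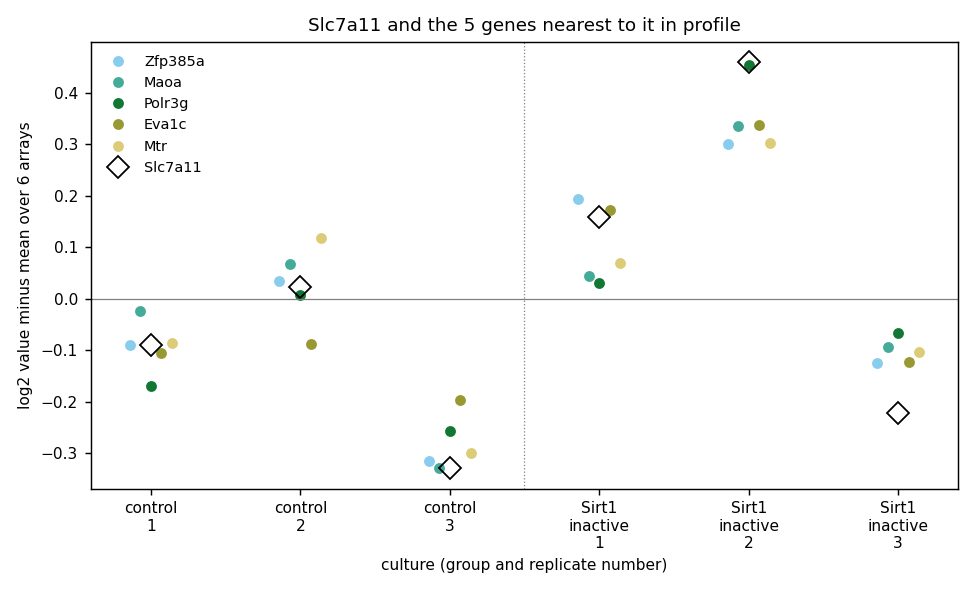
Centred log2 values (vertical axis, value minus the gene's mean over 6 arrays) of Slc7a11 (open diamonds) and of the 5 genes nearest to it in profile (coloured points, set side by side) in each culture (horizontal axis, group and replicate number). Slc7a11 is highest in Sirt1 inactive replicate 2 (0.46) and lowest in control replicate 3 (-0.33), and is low in Sirt1 inactive replicate 3 (-0.22).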

How the data were processed

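Total RNA of 6 cultures was hybridised to Affymetrix arrays, and the authors deposited log2 values for 34760 probe sets, which per the design text and the submitters' processing notes come from RMA; RMA adjusts background, normalizes across arrays and compresses differences of dim probe sets. Its version and the genome build were not given in the sources used here. The log2 scale was read from the values. Of the probe sets 21640 had 1 gene, 1321 several and 11799 none in the annotation used, and 0 columns belonged to other samples.

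Sirt1 inactive minus control was fitted over 22961 annotated probe sets with limma 3.58.1 (R 4.3.3; lmFit, eBayes, genotype as the term), with two-sided p-values adjusted by Benjamini-Hochberg and a threshold of 0.05. The fit was tested on simulated data. Arrays have no read depth, and their number limits precision: the median SE was 0.080. Genes were named by rule: the 10 genes, Sirt1, and from each pathway list the 3 with the smallest unadjusted p (none passed the threshold), and the 5 genes nearest in profile to the member with the widest range; other pathway genes are said to follow their values or are named for their role, and cell markers were named after their values were seen. The genes and lists were chosen with earlier results of these data known. Titles number the cultures 1 to 3 in each group, and same-numbered cultures deviated together (correlations 0.47, 0.36 and 0.27 over probe sets), so the number was treated as a pairing in an alternative fit. Other alternatives were scaling, brightness filter, array weights, prior, probe set choice and leaving out each array.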

Additional observations from a re-analysis of the deposited data

How the results depend on the processing

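In 15 alternative settings, 143 of 150 differences of single genes kept their direction and stayed short of the threshold, and 7 turned in direction. The 143 include cases that could not turn. The replicate block over all 6 arrays, the brightness filter, the changed prior and keeping 1 probe set for each gene left every difference as it was. These settings bore on the threshold alone. Averaging over probe sets moved only Prdx1, from 0.19 to 0.18. Nqo1 was 0.0012 with array weights. Hmox1 turned to -0.061 when control replicate 2 was left out and to -0.056 when Sirt1 inactive replicate 3 was; leaving out each array in turn it ran from -0.061 to 0.18. Txnrd1 turned to -0.027 with control replicate 1 left out and to -0.0075 with Sirt1 inactive replicate 2 left out, and ran from -0.027 to 0.13. Srxn1 turned to -0.0067 with Sirt1 inactive replicate 1 left out, ran from -0.0067 to 0.19, and was -0.015 with the replicate block and both arrays of number 3 left out. In that paired fit of 4 arrays 19 probe sets passed, against 0 with 6 arrays, and none was one of the 10 genes; the cause was not tested. The replicate block changed no call of the 10 genes, and the smallest adjusted p of the 10 genes in these settings was 0.259, for Slc7a11 in the paired fit without number 3 (difference 0.34). Slc7a11 was 0.073 with array weights. With array medians subtracted 51.1% of all probe sets were above 0 in place of 39.9%, and the count of the 10 genes stayed at 8. Leaving out each array gave counts of 7 to 8 and medians of 0.047 to 0.10. Leaving out control replicate 3 was added for the gene lists and their genes after the data were seen.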

Other observations

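Genes of hydrogen peroxide and superoxide removal outside the glutathione and thioredoxin systems were read as values. Of the 4 measured, 1 was above 0 and 0 passed the test (limma, adjusted p = 0.959 to 0.971). Cat, the catalase gene, was 11.36 ± 0.20 in Sirt1 inactive against 11.52 ± 0.047 in control (SD, n = 3), or -0.17. Sod1, the cytosolic superoxide dismutase gene, differed by -0.093 and Sod2, the mitochondrial one, by 0.039. Sod3, the extracellular one, differed by -0.066, or -0.13 without control replicate 3.

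Txnip, which encodes a thioredoxin-binding protein that responds to glucose, had among the widest spreads of the thioredoxin list. It read 8.89, 9.04 and 7.89 in control and 8.30, 9.13 and 8.90 in Sirt1 inactive. Control replicate 3 and Sirt1 inactive replicate 1 were both low, and the difference was 0.17 over all arrays and -0.19 without control replicate 3. Txnip was named after its values were seen.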
